A study of Homo sapiens with 30 samples.

Results

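Bone morphogenetic protein 4 (BMP4) is a secreted ligand of the transforming growth factor beta (TGF-beta) superfamily, and the genes described here are usually counted among the targets of the other branch of that superfamily. TGF-beta and activin receptors phosphorylate SMAD2 and SMAD3, BMP receptors phosphorylate SMAD1, SMAD5 and SMAD8, and both groups share SMAD4 as a partner in the nucleus. In epithelial cells the SMAD2/3 branch is known for growth arrest, matrix production and a negative feedback through SMAD corepressors. The question was whether BMP4 moved such genes in breast cancer cells. All probes whose gene name on the array was CTGF, CYR61, TGFBI, SKIL, SKI, KLF10, KLF11, TGFB1 or TGFB2 were taken, which gave 9 of 30484 gene names and 15 of 41000 probes on the array. The rule itself used no measured value, but the genes were picked with earlier results of these data known.

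Expression was read on 30 two-colour Agilent arrays. The breast cancer lines were ZR-75-30, SK-BR-3, MDA-MB-361, HCC1954 and HCC1419, 5 established human lines, each treated with recombinant human BMP4 or with vehicle. Cells had 24 h to attach to the plate and were collected after 30 min and after 1, 3, 6, 12 and 24 h of treatment. Each array held 1 line at 1 time point, with RNA of BMP4-treated cells in Cy5 and RNA of vehicle-treated cells in Cy3, so that a time point had 5 arrays, 1 per line, and a line had 6. Triplicate treatments were pooled before extraction, so the spread below is the spread between lines and holds no repeat of a culture. All values called ratios are log2 of BMP4 over vehicle on the same array, where 1 is a doubling. No array had the dyes swapped, so a ratio tested against 0 also holds any dye bias of its probe, while such a bias, where all arrays share it, drops out of a difference between time points or lines. In bulk RNA of a line, fewer cells expressing a gene and less RNA per cell cannot be told apart.

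The share of probes well above background per array ran from 58.9% to 70.6% in Cy3 and from 56.3% to 70.8% in Cy5. Of 11 probes for epithelial and luminal breast markers (KRT8, KRT18, KRT19, CDH1, ERBB2 and GATA3), 9 were above background on all 30 arrays, and of 8 probes for stromal, blood and endothelial markers none was, with 4 of them above background on no array. The arrays were scanned on 7 days. All arrays of HCC1419 were scanned on 1 day and all of MDA-MB-361 on another, whereas each of the other 3 lines was split over 2 days.

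SKIL and CTGF are shown by sequence because both are textbook SMAD targets, and of the 2 SKIL passed the test against vehicle described next while CTGF did not. The 250 bases before the start of each gene were taken from RefSeq (GRCh38.p14, gene strand, 5′ to 3′), a build other than that of the array files, so no probe position is set against them. Capitals mark 3 motifs on either strand, the SMAD box AGAC (or GTCT), the GC-rich SMAD element GGCGCC, and GGAATG (or CATTCC), the element read by TEAD factors. SKIL lies on the plus strand at chr3:170357465-170357714 and CTGF on the minus strand at chr6:131951373-131951622.
SKIL: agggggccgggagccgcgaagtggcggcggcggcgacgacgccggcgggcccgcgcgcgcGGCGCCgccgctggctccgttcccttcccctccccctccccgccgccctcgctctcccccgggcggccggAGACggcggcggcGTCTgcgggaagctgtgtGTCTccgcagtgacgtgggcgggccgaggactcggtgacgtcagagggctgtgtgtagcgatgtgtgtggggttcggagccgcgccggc
CTGF: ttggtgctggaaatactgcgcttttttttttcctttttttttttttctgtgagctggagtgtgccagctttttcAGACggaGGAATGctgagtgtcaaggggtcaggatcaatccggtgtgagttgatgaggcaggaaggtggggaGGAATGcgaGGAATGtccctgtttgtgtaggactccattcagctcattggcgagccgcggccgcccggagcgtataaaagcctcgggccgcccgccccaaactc
The SKIL window held the SMAD box 3 times and GGCGCC once, and the CTGF window held the SMAD box once and GGAATG 3 times. AGAC stood in 77.5% of the 35116 windows of the table, GGCGCC in 16.4% and GGAATG in 11.9%. The palindrome GTCTAGAC, in 0.182% of windows, was in neither. Of the 9 genes 6 had a window in the table. SKIL and TGFBI were the members whose window held GGCGCC, and TGFB1 held none of these motifs. A match is a description of these letters and is no evidence of binding.

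SKIL was higher with BMP4 than with vehicle in all 5 lines from 3 h on, and passed the test at 3 h and 24 h. SKIL encodes SnoN, a corepressor that binds SMAD complexes and is itself a classical feedback target of the SMAD2/3 branch. The mean ratio over the 5 lines was 0.01 ± 0.12 (SD, n = 5) at 30 min and −0.02 ± 0.41 at 1 h, and then 0.54 ± 0.26, 0.53 ± 0.29, 0.48 ± 0.23 and 0.46 ± 0.25 at 3, 6, 12 and 24 h. The 20 arrays from 3 h on were all above 0, with a mean of 1.41-fold, whereas 3 of the 10 arrays at 30 min and 1 h were.

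In the order 30 min, 1, 3, 6, 12 and 24 h, the SKIL ratios in HCC1419 were −0.08, 0.33, 0.80, 0.80, 0.57 and 0.73. In HCC1954 they were 0.21, 0.51, 0.61, 0.38, 0.34 and 0.62. In MDA-MB-361 they were −0.02, −0.33, 0.74, 0.63, 0.39 and 0.33. MDA-MB-361 thus stepped up between 1 h and 3 h, while HCC1419 rose from 30 min through 1 h to 3 h. HCC1954 was already above 0 at 30 min and 1 h. In SK-BR-3 the ratios were −0.06, −0.20, 0.21, 0.72, 0.84 and 0.10, and in ZR-75-30 they were 0.00, −0.41, 0.32, 0.09, 0.25 and 0.52. These lines were lower at 1 h than at 30 min and higher at every later time, and SK-BR-3 was back near its starting value at 24 h. Of the 20 arrays from 3 h on, 18 lay above the highest 30 min value (0.21, HCC1954), and the exceptions were ZR-75-30 at 6 h (0.09) and SK-BR-3 at 24 h (0.10).

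With limma and Benjamini-Hochberg adjustment over all 41000 probes, SKIL passed the threshold of 0.05 against 0 at 3 h (adjusted p = 0.036) and at 24 h (adjusted p = 0.041). At 6 h and 12 h the adjusted p was 0.064. Of all probes, 0.0805% were called against 0 at 30 min and 0.973% after 1 h. The shares at the later times were 0.349% (3 h), 0.176% (6 h), 0.463% (12 h) and 1.58% (24 h). The 2 SKIL calls were the only ones among the 90 combinations of member probe and time point. The 3 h call was lost without ZR-75-30, HCC1954, MDA-MB-361 or HCC1419 (adjusted p = 0.052, 0.15, 0.18 and 0.31) and held without SK-BR-3, and the 24 h call was lost in the same 4 cases (adjusted p = 0.11, 0.18, 0.094 and 0.18). Both were also lost when each array was scaled by 1 factor in place of loess, where the SKIL mean was 0.53 at 3 h (adjusted p = 1) and 0.59 at 24 h (adjusted p = 0.19).

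**Figure D1:**
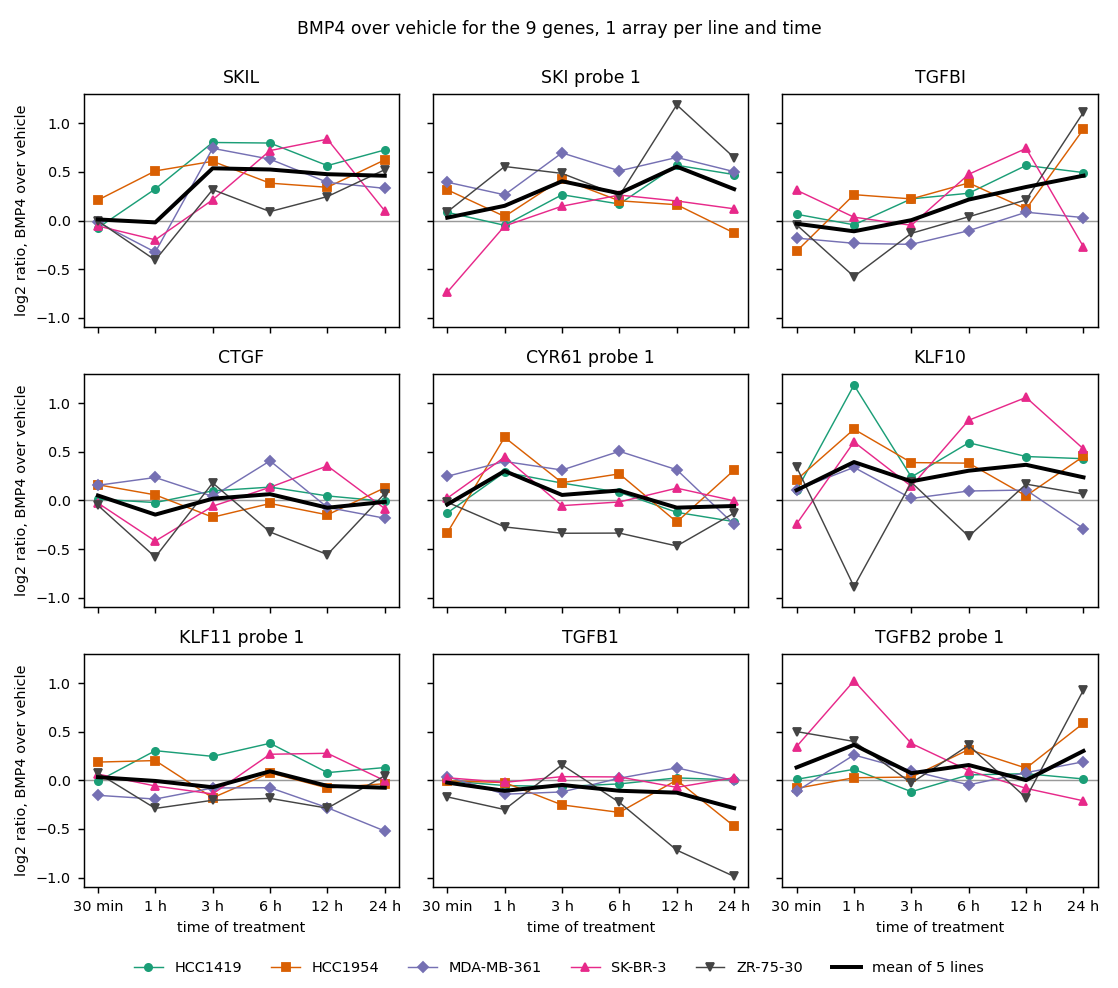
Log2 ratio of BMP4 over vehicle (vertical axis) at the 6 time points (horizontal axis, evenly spaced and not to scale) for 1 probe of each of the 9 genes, the one with the highest mean signal. Thin lines with symbols are the 5 cell lines and the thick black line is their mean. SKIL is above 0 in every line from 3 h on, CTGF stays around 0, and KLF10 at 1 h spreads from −0.89 in ZR-75-30 to 1.19 in HCC1419.

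The late change was defined as the mean of 3, 6, 12 and 24 h minus 30 min, fitted with a block for the cell line. Any dye bias shared by the arrays drops out of it. No member probe was called in it by limma, against 0.0927% of all probes, all of them higher. SKIL came closest, with a late change of 0.49 ± 0.12 (SE), a 95% interval of 0.25 to 0.73, an unadjusted p of 0.00034 and an adjusted p of 0.19. Its late change was above 0 in each line, at 0.80 in HCC1419, 0.54 in MDA-MB-361, 0.52 for SK-BR-3, 0.30 for ZR-75-30 and 0.28 for HCC1954. Of all probes, 3.95% were above 0 in all 5 lines by this measure. Within a line and a scan day the SKIL difference from 30 min was 0.80 in HCC1419 and 0.54 in MDA-MB-361 (4 later arrays each), 0.29 in ZR-75-30 (2 later arrays) and 0.13 in HCC1954 (1 later array). In SK-BR-3 the 30 min array and the later arrays were scanned on different days, and time and scan day cannot be told apart there.

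At an unadjusted p under 0.05, 4 of the 15 member probes differed in the late change, 3 of them higher (SKIL, SKI probe 1 and SKI probe 3) and 1 lower (KLF11 probe 2), where 4.99% of all probes did. The median late change of the 15 probes was 0.05, against 0.01 over all probes, and 10 of the 15 were above 0, against 53.3% of all. For comparison, the direct BMP targets ID1, ID2, ID3 and ID4, inhibitors of basic helix-loop-helix factors, and SMAD6, an inhibitory SMAD, were read from the same fits. All 6 of their probes were called higher, with late changes from 0.75 in SMAD6 to 1.33 in ID2 probe 1. ID1 had a late change of 1.02 ± 0.13 (SE), with an interval of 0.75 to 1.29. The intervals of SMAD6 (0.53 to 0.98) and ID4 (0.66 to 1.23) overlapped that of SKIL.

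**Figure D2:**
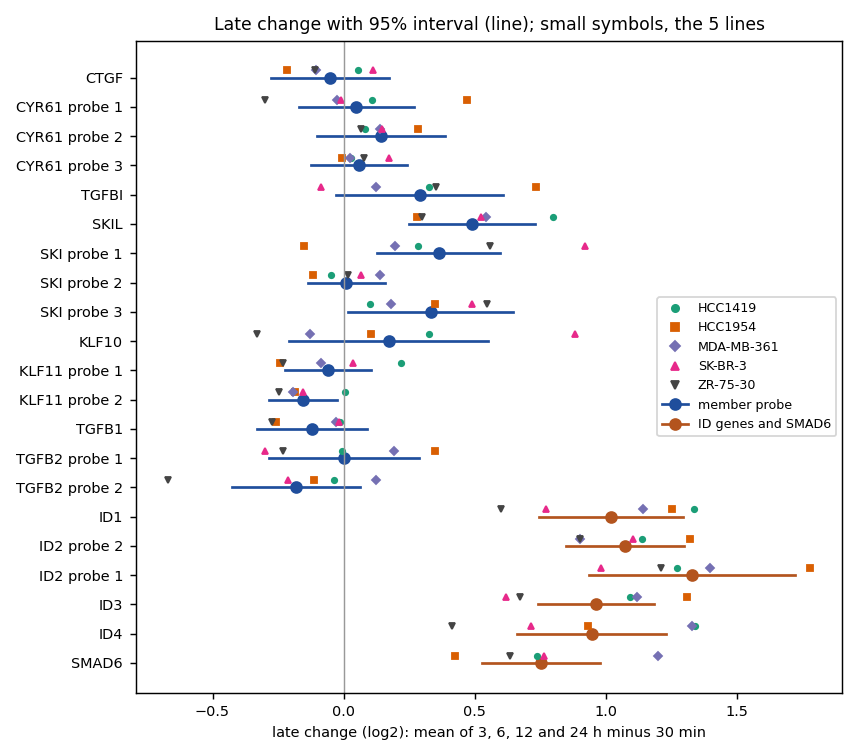
Late change on the log2 scale (horizontal axis) of the 15 member probes and of the ID and SMAD6 probes (vertical axis). Large dots are the fitted values, bars their 95% intervals, and small symbols the 5 lines. SKIL is the member with the largest late change (0.49), below the fitted values of all 6 ID and SMAD6 probes (0.75 to 1.33).

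SKI encodes the corepressor closest to SnoN and had 3 probes, none of them called against vehicle or in the late change. SKI probe 1 had a late change of 0.36 ± 0.11 (SE, adjusted p = 0.68) and its mean ratio was highest at 12 h, at 0.55 ± 0.42 (SD, n = 5, limma adjusted p = 0.063). At 12 h the values were 1.19 in ZR-75-30, 0.65 in MDA-MB-361, 0.57 in HCC1419, 0.20 in SK-BR-3 and 0.16 in HCC1954. All 5 were above 0. Its 30 min values were 0.09, 0.40, 0.08, −0.74 and 0.32 in the same order of lines, and the late change of 0.92 in SK-BR-3 is measured from that low 30 min array. SKI probe 2 had a late change of 0.01 ± 0.07, with an interval of −0.14 to 0.16. SKI probe 3 had a late change of 0.33 ± 0.15, above 0 in 5 of 5 lines, and its 30 min mean was −0.34 ± 0.23 while its means from 3 h on lay between −0.08 and 0.10. Over the 30 arrays the ratios of the SKI probes correlated with Pearson r of 0.31, 0.15 and −0.19 between pairs. They lie on chromosome 1 (hg18), at 2230742 to 2230801 for probe 1, 2229233 to 2229292 for probe 2 and 2227376 to 2227435 for probe 3, and the first is listed under an Ensembl transcript and the others under a RefSeq one.

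CTGF and CYR61 were called neither against vehicle at any time nor in the late change. Both encode secreted matricellular proteins of the CCN family (CCN2 and CCN1 today) and are immediate early genes as well as TGF-beta targets. CTGF had a late change of −0.05 ± 0.11 (SE), with an interval of −0.28 to 0.17, and was below 0 in 3 of the 4 lines that measured it. Its mean ratio lay between −0.15 ± 0.34 (SD, n = 5) at 1 h and 0.07 ± 0.27 at 6 h, and the 30 ratios ran from −0.58 (ZR-75-30, 1 h) to 0.41 (MDA-MB-361, 6 h), with 15 of them above 0. The HCC1419 values hold no measurement of CTGF, since the probe was not well above background there in either channel on any array. In MDA-MB-361 it was above background on 4 of 6 arrays.

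The 3 CYR61 probes had late changes of 0.05 ± 0.11, 0.14 ± 0.12 and 0.06 ± 0.09 (SE), with intervals that together span −0.17 to 0.39. Their highest means stood at 1 h for probe 1 (0.30 ± 0.35, SD) and probe 3 (0.33 ± 0.29), and at 6 h for probe 2 (0.24 ± 0.30), which was 0.20 ± 0.18 at 1 h. At 1 h the ratios of probe 1 were 0.65 in HCC1954, 0.45 in SK-BR-3, 0.40 in MDA-MB-361, 0.29 in HCC1419 and −0.27 in ZR-75-30, and those of probe 3 were 0.05, 0.36, 0.68, 0.03 and 0.54. Probes 2 and 3 were above 0 in 5 of 5 lines at 1 h and probe 1 in 4. The adjusted p against 0 at 1 h was 0.25, 0.35 and 0.19 for the 3 probes, where 0.973% of all probes were called. No member was called by limma in the difference of 1 h from 30 min, where 0.00244% of all probes were called. At an unadjusted p under 0.05, 3 of the 15 differed, all higher, where 2.95% of all probes were higher and 6.16% differed either way. They were CYR61 probe 3 (0.40 ± 0.11, SE), CYR61 probe 1 (0.34 ± 0.13) and SKI probe 3 (0.45 ± 0.19), each with an adjusted p of 0.77. In the F test over time no member was called either, against 0.0902% of all probes, and 4 members had an unadjusted p under 0.05, against 4.20% of all.

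In some lines the level of these 2 genes in the vehicle channel spanned a far wider range over time than the ratio did. Levels here are log2 intensities of the Cy3 channel after loess and quantile normalization of the mean signal of the arrays, and levels of different probes cannot be compared. In HCC1954 the CTGF level was 11.62, 14.97, 12.66, 10.60, 8.83 and 9.64 from 30 min to 24 h. In SK-BR-3 it was 12.54, 14.07, 9.72, 8.0, 8.11 and 8.95, and in ZR-75-30 it was 9.88, 11.73, 10.03, 10.65, 9.78 and 8.83. In all of these lines the 1 h array was the highest, and the distance to the lowest array was 70.5-fold in HCC1954, 67.0-fold in SK-BR-3 and 7.45-fold in ZR-75-30. Over the same arrays of HCC1954 the BMP4 ratio of CTGF stayed between −0.17 and 0.16. In MDA-MB-361 the CTGF level spanned 1.84-fold, with ratios between −0.18 and 0.41, and in HCC1419 that of CYR61 probe 1 spanned 1.55-fold, with ratios between −0.22 and 0.29.

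CYR61 probe 1 also had its highest vehicle level at 1 h in 4 of 5 lines, HCC1419 being the exception with 11.21 at 30 min and 10.91 at 1 h. Its level in SK-BR-3 was 15.80 at 1 h and 12.71 at 12 h, and in ZR-75-30 it was 14.10 at 1 h and 11.43 at 24 h. In the F test of the vehicle level over time with limma, 0.144% of all probes were called, and CYR61 probe 3 was the only member among them (adjusted p = 0.041), with 0.086 and 0.11 for probes 2 and 1 and 0.28 for CTGF. That call was lost on leaving out any 1 line (adjusted p from 0.058 to 0.26) and with scan day within each line as a block (0.062, chosen after the data were seen). In the BMP4 channel all 3 CYR61 probes were called over time (adjusted p = 0.025, 0.034 and 0.012), against 0.873% of all probes, and CTGF was not (0.13). In MDA-MB-361, which had 1 scan day, the vehicle level of CYR61 probe 1 was 12.31 at 30 min, 13.04 at 1 h and between 11.60 and 12.20 later. In SK-BR-3 the arrays at 30 min and 1 h were scanned on another day than the rest, and the difference between 1 h and 3 h cannot be told apart from scan day there.

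**Figure D3:**
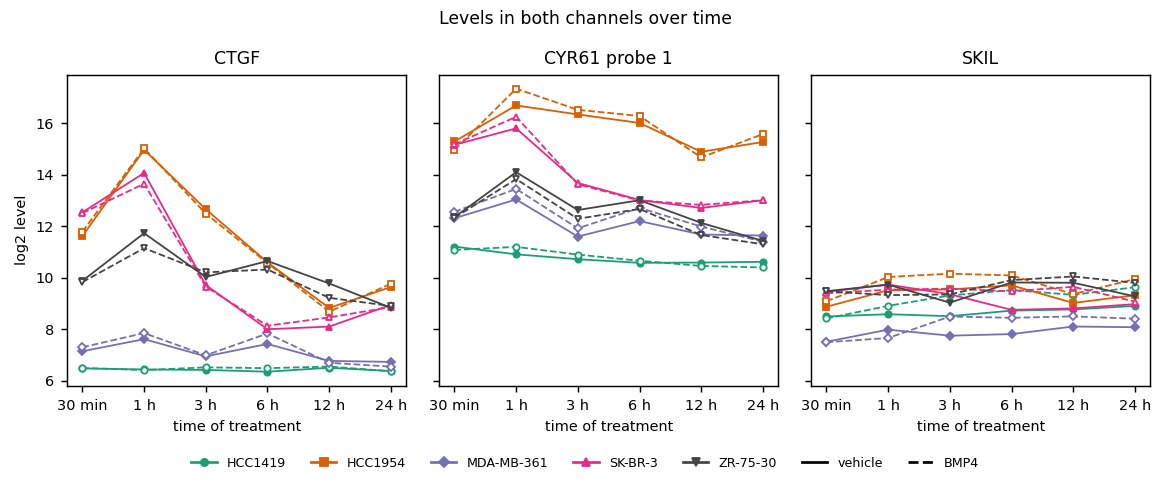
Log2 level (vertical axis) of CTGF, CYR61 probe 1 and SKIL at the 6 time points (horizontal axis, evenly spaced and not to scale) in vehicle-treated cells (solid lines, filled symbols) and BMP4-treated cells (dashed lines, open symbols) of the 5 lines. For CTGF in HCC1954 and SK-BR-3 both channels peak at 1 h and are lower together afterwards, while for SKIL in HCC1419 and MDA-MB-361 the dashed line lies above the solid one from 3 h on.

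TGFBI, which encodes a secreted matrix protein named for its induction by TGF-beta, had a late change of 0.29 ± 0.15 (SE) with an interval of −0.03 to 0.61. Its mean ratio was −0.11 ± 0.32 (SD, n = 5) at 1 h and 0.00 ± 0.21, 0.22 ± 0.24 and 0.35 ± 0.29 at 3, 6 and 12 h, and it ended at 0.46 ± 0.59 at 24 h (limma adjusted p = 0.11). For TGFBI the SD was largest at 24 h, while the p used 1 spread for all time points. The 24 h ratios were 1.11 in ZR-75-30, 0.94 in HCC1954, 0.49 in HCC1419, 0.03 for MDA-MB-361 and −0.27 for SK-BR-3. The groups at 30 min and 24 h overlap, since MDA-MB-361 and SK-BR-3 lay below the highest 30 min value (0.31, SK-BR-3). SK-BR-3 had its highest ratio at 12 h, at 0.74, and the lowest of all lines at 24 h. Without background correction the 24 h mean of the 5 lines was 0.56 and was called (adjusted p = 0.043). It was 0.61 with the software's log ratio and 0.64 with 1 factor per array, and was called in neither (adjusted p = 0.057 and 0.25). Without SK-BR-3 the 24 h mean was 0.65 and was called (adjusted p = 0.028). Leaving out the lowest line raises the mean by construction, so that call adds no support.

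KLF10 and KLF11 encode zinc finger repressors first described as TGF-beta inducible early genes. KLF10 had the widest spread between lines of all members at 1 h, with ratios of 1.19 in HCC1419, 0.73 in HCC1954, 0.60 in SK-BR-3, 0.34 in MDA-MB-361 and −0.89 in ZR-75-30. The mean was 0.40 ± 0.78 (SD, n = 5, limma adjusted p = 0.34). For KLF10 the SD was largest at 1 h, while the p used 1 spread for all time points. Without ZR-75-30, the only line below 0, the 1 h mean was 0.72 and was called (adjusted p = 0.042). Leaving out the lowest line raises the mean by construction, so that call adds no support. ZR-75-30 at 1 h was scanned on another day than ZR-75-30 at 30 min, and its vehicle level of KLF10 was 10.92 there and 10.03 at 30 min. From 3 h on KLF10 had means between 0.20 and 0.37, none called, and a late change of 0.17 ± 0.18 (SE). SK-BR-3 had the highest of these ratios, 0.83 at 6 h and 1.06 at 12 h, while MDA-MB-361 stayed between −0.29 and 0.11.

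KLF11 probe 1 had a late change of −0.06 ± 0.08 and probe 2 of −0.16 ± 0.06 (SE, adjusted p = 0.94). Probe 2 was below 0 on 25 of 30 arrays, and at 24 h it was −0.37 in HCC1954, −0.30 in ZR-75-30, −0.18 for MDA-MB-361, −0.07 for SK-BR-3 and −0.05 in HCC1419. All 5 lines were below 0, with a mean of −0.20 ± 0.14 (SD, limma adjusted p = 0.10). Under 3 other treatments of the signal this 24 h mean was called lower. It was −0.39 (adjusted p = 0.014) with the log ratio of the scanner software, −0.24 (0.034) without background correction and −0.41 (0.024) with the authors' own matrix.

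The ligand genes TGFB1 and TGFB2 were not called at any time. TGFB1, the only member with 10 spots per array, had a late change of −0.12 ± 0.10 (SE). In HCC1419 and SK-BR-3 no array had the TGFB1 probe well above background, so the values there hold no measurement. The late change of the 3 other lines was −0.27 in ZR-75-30, −0.26 in HCC1954 and −0.03 in MDA-MB-361. In ZR-75-30 the ratio was −0.17, −0.30, 0.16, −0.23, −0.72 and −0.99 from 30 min to 24 h, and in MDA-MB-361 it stayed between −0.14 and 0.13. The ZR-75-30 arrays at 12 h and 24 h were the lowest TGFB1 values of all, and they were scanned on different days. In HCC1954 the ratio was between −0.47 and −0.25 on the 3 arrays of one scan day (3, 6 and 24 h) and between −0.02 and 0.00 on the 3 arrays of the other (30 min, 1 and 12 h). The vehicle level of TGFB1 was 8.93 to 9.0 on the first of these days and 7.75 to 7.90 on the second, and the part of scan day in the ratio was not tested.

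TGFB2 probe 1 had a late change of 0.00 ± 0.14 (SE) and probe 2 of −0.18 ± 0.12. Both include lines without a measurement, HCC1419 for probe 1 and HCC1419 and MDA-MB-361 for probe 2, where no array was well above background. In SK-BR-3 probe 2 was above background in Cy3 on 4 of 6 arrays. Probe 1 had means of 0.37 ± 0.40 (SD, n = 5) at 1 h, with 1.02 in SK-BR-3, and of 0.30 ± 0.46 at 24 h, with 0.93 in ZR-75-30 and 0.59 in HCC1954. Probe 2 was at −0.17 in ZR-75-30 and −0.16 in HCC1954 at 24 h. On the 16 arrays where both TGFB2 probes were above background in both channels, their ratios had a Pearson r of 0.14 and their vehicle levels one of 0.85. They lie on chromosome 1 (hg18) at 216683872 to 216683931 and at 216681407 to 216681466, and are listed under an Ensembl and a RefSeq transcript.

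A ratio of 2-fold or more, the size that the study's own filters used, was reached on 6 of the 450 combinations of member probe and array. KLF10 reached it upward on 2 arrays, and TGFBI, SKI probe 1, SKI probe 3 and TGFB2 probe 1 on 1 array each. The other 10 probes, SKIL among them, never did, and no member was 2-fold lower on any array. Of all probes, 7.80% reached 2-fold on at least 1 array and 0.917% on at least 4. These are shares of probes and are not comparable with 6 of 450 combinations. They compare with the probes named here out of 15 member probes, which is a larger share on at least 1 array. No member probe reached 2-fold on 4 arrays.

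The lines differed in the ratio of 5 of the 15 member probes (limma F test between lines, time point in the model), where 22.2% of all probes were called. These were CYR61 probe 1 (adjusted p = 0.030), CYR61 probe 3 (0.0052), SKI probe 1 (0.016), SKI probe 2 (0.049) and KLF11 probe 1 (0.014). Over its 6 arrays the mean of CYR61 probe 3 was 0.43 ± 0.23 (SD) in MDA-MB-361, above 0 on all 6, and between −0.09 and −0.03 in the other lines. CYR61 probe 1 was below 0 on all 6 arrays of ZR-75-30, with a mean of −0.26 ± 0.16, and CYR61 probe 2 was not called in the same test (adjusted p = 0.99). SKI probe 2 was at 0.16 ± 0.13 in MDA-MB-361, above 0 on all 6 arrays, and had line means below 0 elsewhere. KLF11 probe 1 was at −0.22 ± 0.17 in MDA-MB-361 and −0.14 ± 0.16 in ZR-75-30, which lay within their SD of each other, and at 0.19 ± 0.15 in HCC1419. KLF11 probe 2 (adjusted p = 0.28) and SKI probe 3 (0.79) were not called in the same test. None of the 5 probes called here passed without MDA-MB-361 or with 1 factor per array. HCC1954 and ZR-75-30 shared a scan day and no other lines did. Line and scan day therefore cannot be told apart for MDA-MB-361, HCC1419 and SK-BR-3. Whether the late change itself differed between lines was tested by an interaction, in which no member was called, against 0.0588% of all probes. At an unadjusted p under 0.05, 1 of the 15 differed, against 6% of all probes.

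The lines differed most in how much of each gene the vehicle-treated cells held. The vehicle level differed between lines for 14 of 15 member probes, where 73.1% of all probes were called, and the one not called was SKI probe 3 (adjusted p = 0.056). TGFBI had a level of 14.53 ± 0.51 (SD, n = 6 arrays) in HCC1954, 12.90 ± 0.35 in ZR-75-30, 10.45 ± 0.43 in SK-BR-3, 9.05 ± 0.41 in MDA-MB-361 and 7.95 ± 0.22 in HCC1419. Each step of this order was larger than the SD of the lines on either side of it, and the top was 95.8-fold above the bottom. CYR61 probe 1 ran in the order HCC1954 (15.75 ± 0.71), SK-BR-3 (13.90 ± 1.29), ZR-75-30 (12.61 ± 0.90), MDA-MB-361 (12.08 ± 0.56) and HCC1419 (10.77 ± 0.25), where ZR-75-30 and MDA-MB-361 lay within their SD of each other and SK-BR-3 and ZR-75-30 differed by about the SD of SK-BR-3.

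Where no array of a line has a probe well above background, its level there is only a bound, set by the weakest signal that was above background on each array. CTGF was at 11.39 ± 2.22 in HCC1954, 10.23 ± 2.51 in SK-BR-3, 10.15 ± 0.97 in ZR-75-30 and 7.11 ± 0.36 in MDA-MB-361, and the upper 3 were within their SD of each other. HCC1954 was at least 27.5-fold higher than HCC1419 in CTGF. TGFB2 probe 1 was at 13.09 ± 0.44 in HCC1954, 10.84 ± 0.64 in ZR-75-30, 9.04 ± 0.48 in SK-BR-3 and 8.15 ± 0.34 in MDA-MB-361, and HCC1954 was at least 83.4-fold higher than HCC1419. TGFB2 probe 2 gave the same highest line, at least 24.4-fold above HCC1419 and at least 24.1-fold above MDA-MB-361. TGFB1 was highest in ZR-75-30 at 8.91 ± 0.53, with HCC1954 at 8.39 ± 0.64 and MDA-MB-361 at 7.50 ± 0.10, where ZR-75-30 and HCC1954 lay within their SD of each other. TGFB1 in ZR-75-30 was at least 4.87-fold above HCC1419 and at least 4.78-fold above SK-BR-3. These folds compare the Cy3 channel after loess and quantile normalization. They are open to dye bias and, between lines scanned on different days, to scan day.

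The SMAD corepressors spanned smaller ranges between lines. SKIL was at 9.53 ± 0.32 in ZR-75-30, 9.33 ± 0.32 in HCC1954, 9.18 ± 0.39 in SK-BR-3, 8.67 ± 0.16 in HCC1419 and 7.88 ± 0.23 in MDA-MB-361. The upper 3 lay within their SD of each other, and the whole range was 3.14-fold. The range of the SKI probes was between 1.53-fold and 2.29-fold, that of KLF10 was 3.99-fold, and those of the KLF11 probes were 2.46-fold and 1.96-fold. In HCC1954 the vehicle levels of the 2 scan days did not overlap for 8 of the 15 probes, where 46.1% of all probes did not overlap. Of these, 6 were higher on the day of the 3, 6 and 24 h arrays and 2 were lower. KLF10 was at 11.60 to 11.96 on that day and at 10.23 to 10.50 on the other, while SKIL, CTGF and the CYR61 probes overlapped between the days.

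**Figure D4:**
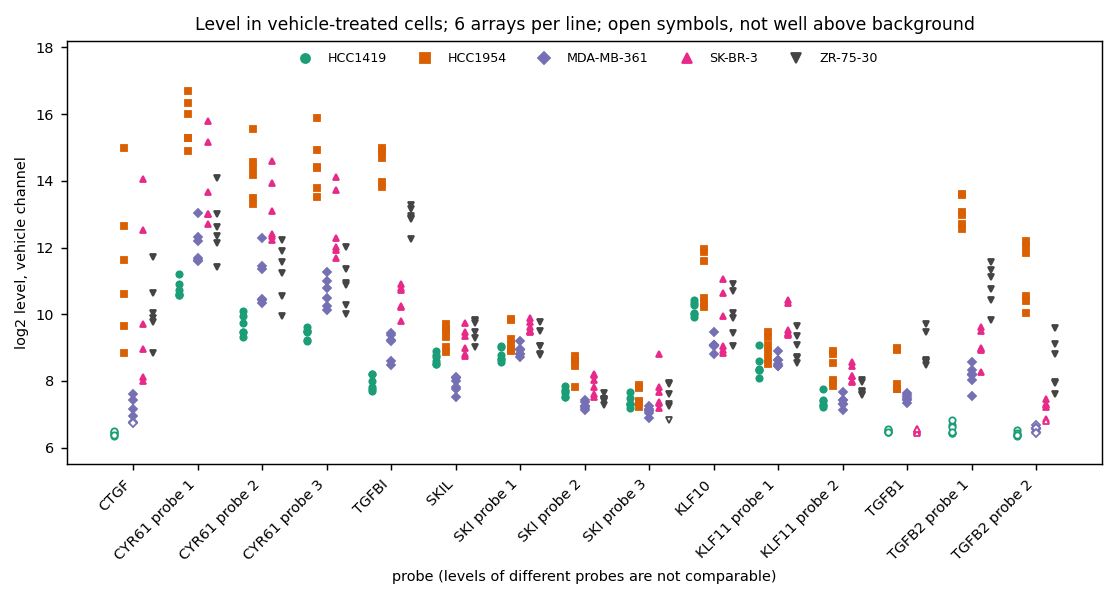
Log2 level in the vehicle channel (vertical axis) of the 15 member probes (horizontal axis), with 6 arrays for each of the 5 lines. Open symbols are arrays where the probe was not well above background. HCC1954 is the highest for CTGF, CYR61, TGFBI and TGFB2, with TGFBI 95.8-fold above HCC1419, while SKIL spans 3.14-fold.

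Other genes of the branch were read from the same fits. Of 30 probes of 19 other SMAD2/3 targets none was called in the late change, the early change or the F test over time by limma, and their median late change was 0.03. JUNB, an AP-1 subunit, was called higher against 0 at 5 time points on its probe 1, with means of 0.98 ± 0.44, 0.82 ± 0.23, 0.87 ± 0.24, 1.12 ± 0.27 and 1.07 ± 0.24 (SD, n = 5) at 1, 3, 6, 12 and 24 h (limma adjusted p = 2.8e-05, 0.00036, 0.00023, 1.4e-05 and 1.0e-05). All 5 lines were above 0 at each of these times. The late change of probe 1 was 0.53 ± 0.11 (SE, adjusted p = 0.075) and its difference of 1 h from 30 min was 0.53 ± 0.14 (adjusted p = 0.77). Both were smaller than the means against 0, so part of the ratio was already there at 30 min. That part cannot be told apart from dye bias. JUNB probe 2 was called at no time (0.38 at 24 h, adjusted p = 0.34). SMAD7, the inhibitory SMAD of both branches, was called at 1 h (0.65 ± 0.40, adjusted p = 0.00062), and so was BHLHE40, a transcriptional repressor (0.30 ± 0.13, adjusted p = 0.0074). By limma the difference of 1 h from 30 min was 0.58 ± 0.11 (SE, adjusted p = 0.15) for SMAD7. For BHLHE40 it was 0.14 ± 0.08 (adjusted p = 0.77), so part of its 1 h mean was already there at 30 min. Dye bias cannot be told apart from that part either. The late change was 0.25 ± 0.09 (SE) for SMAD7, and −0.15 ± 0.06 for BHLHE40, which was above 0 in no line. JUNB, SMAD7 and BHLHE40 are named after their values were seen. Of 24 probes of 13 pathway genes (ligands, latent binding proteins, receptors and SMADs), none was called in the late change. INHBB, an activin subunit also named after its value was seen, was the one called lower at 24 h, at −0.33 ± 0.07 (adjusted p = 0.018, below 0 in 5 of 5 lines). Its late change was 0.03 ± 0.08 (SE).

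The ratios most like that of SKIL over the 30 arrays were those of GCC2 (Pearson r of 0.76), CFL2 (0.73) and CLIC4 (0.73), whose late changes were 0.08, 0.22 and 0.10. For the other members the 3 most alike probes had r between 0.69 and 0.92. They were VPS41, ZNF146 and THAP5 for CTGF, CENPJ, WDR19 and ZNF232 for CYR61, CAPS, TSPYL4 and GTF2I for TGFBI, and HCG18, SLC4A7 and WASF2 for SKI. They were SUPT4H1, CSNK1G3 and SEC24B for KLF10, HACE1, SLC25A40 and ARHGAP11A for KLF11, SF3B4, PDLIM7 and SMYD5 for TGFB1, and RPS6KA3, SEC31B and KHSRP for TGFB2. Members that were above background on fewer than 25 arrays (CTGF, TGFB1 and TGFB2) could not be named as alike, and their own r values include arrays that did not measure them. The points share their arrays and the lines, so these values describe the arrays and carry no test.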

How the data were processed

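The authors scanned the arrays and deposited, per the file headers, Feature Extraction 9.5.1.1 output on build hg18 (the study's methods name another version of the software). The mean spot and median background signals are deposited intensity values with no normalization. The software's log ratio is deposited as log10 of Cy5 over Cy3, and the authors' matrix holds log2 ratios per probe.

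From these, normexp background correction (offset 50) and loess within arrays were run with limma 3.58.1 in R 4.3.3, with 1639 control spots at weight 0. Spots marked as outliers were set to missing, the 43376 others were averaged into 41000 probes, and no member value was lost. Each fit ran on all probes with lmFit, eBayes and Benjamini-Hochberg adjustment, with 0.05 as the limit for a call. Intervals are at 95%. Arrays pair across time points because a replicate number is 1 cell line (mean r of deviations 0.23 within lines and −0.06 between lines). The scripts were tested on simulated data. All member probes are named, ID1 to ID4 serve as reference, other listed genes are named where called, and likeness is Pearson r over 30 arrays among probes well above background on at least 25. The members and gene lists were chosen with earlier results of these data known. Differences between samples measure the spread between pooled cultures of 5 lines.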

Additional observations from a re-analysis of the deposited data

Results flagged for a closer look

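Within each time point the 5 lines were searched for 1 value far from the others, by its gap to the nearest one as a share of the range. Of 90 groups of member probe and time point, 10 held such a value. The nominal rate of the search is about 1 in 20, but its rate over all probes was not determined. The count is therefore not read as an excess among the members. CYR61 probe 2 was at −0.38 in ZR-75-30 at 3 h and at 0.75 in MDA-MB-361 at 6 h. CYR61 probe 3 was at 0.48 in MDA-MB-361 at 12 h, with the other lines between −0.26 and −0.18. SKIL was at 0.21 in HCC1954 at 30 min, with the other lines between −0.08 and 0.00. SKI probe 1 was at −0.74 in SK-BR-3 at 30 min and at 0.51 in MDA-MB-361 at 6 h. KLF11 probe 1 was at 0.25 in HCC1419 at 3 h and at −0.52 in MDA-MB-361 at 24 h. TGFB1 was at −0.17 and −0.72 in ZR-75-30 at 30 min and 12 h. At 12 h the other lines that measured it were at 0.00 (HCC1954) and 0.13 (MDA-MB-361). The search also counted HCC1419 and SK-BR-3, whose TGFB1 values were not well above background and hold no measurement. The ZR-75-30 array at 12 h also had the widest spread of ratios over all probes (SD 0.39, against 0.12 on the narrowest array), and the part of that array in the TGFB1 value was not tested.

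The ratio differed between the lines, by limma's F test, for CYR61 probe 1 (adjusted p = 0.030, line means from −0.26 to 0.26), CYR61 probe 3 (0.0052, −0.09 to 0.43), SKI probe 1 (0.016, −0.01 to 0.54), SKI probe 2 (0.049, −0.13 to 0.16) and KLF11 probe 1 (0.014, −0.22 to 0.19). For MDA-MB-361, HCC1419 and SK-BR-3, line and scan day cannot be told apart in this test.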

How the results depend on the processing

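The count of member probes called in the late change, the early change and the F test over time was 0 under every alternative run, without a replicate block (no block for the cell line) included, and the late change of SKIL stayed between 0.41 and 0.61 with an adjusted p between 0.069 and 1. Of the 90 combinations tested against 0, of which 2 were called (SKIL at 3 h and 24 h), 5 were called with the software's log ratio, 6 without background correction, 0 with 1 factor per array, 4 with the authors' matrix, 1 with scale normalization, 5 with dim probes left out, 4 with array weights, 4 with scan day as a random block and 3 with the cell line as a random replicate block, which added SKI probe 1 at 12 h (adjusted p = 0.035). Leaving out 1 line gave 0 to 4. SKIL made up most of these, with KLF11 probe 2 (lower), SKI probe 1, TGFBI and KLF10 among the rest. In the test of the ratio between lines, where 5 probes were called, the count was 3 with the log ratio of the software, the authors' matrix and scale normalization, 0 with 1 factor per array, 10 with array weights, and 0 to 5 on leaving out 1 line. The late change differed between lines for 2 probes with array weights (KLF10 and TGFB2 probe 2) and for none elsewhere. The vehicle level over time had 0 calls with the 75th percentile scaling, with no replicate block, with scan day within lines and on leaving out any line. For the late change within 1 scan day no test could be run. The cause of these shifts was not tested. Precision is limited by 5 arrays per time point, and CTGF, TGFB1 and TGFB2 were not above background in every line. The slide and within-day alternatives were chosen after the data were seen.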
